A study of Homo sapiens with 12 samples.

Results

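The genes described here copy the genome in S phase and make the nucleotides for it. They were taken from a list of 59 gene symbols covering origin licensing, the MCM helicase, origin firing, the polymerases and clamp, Okazaki fragment maturation, deoxynucleotide synthesis, chromatin behind the fork and fork protection. Of the 59, 31 had a named row in the expression table and are described here, out of 14884 genes tested. The other 28 are not analysed here. They are ORC1, ORC2, ORC3, ORC5, ORC6 and GMNN of licensing, all 10 polymerase and primase genes, RFC1 to RFC5, RPA1 to RPA3, LIG1, TK1, CHAF1A and CHAF1B.

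RNA was measured on 12 expression microarrays of the multiple myeloma line MM.1S, an established human cell line, after 24 h with the drugs. The 4 groups had 3 arrays each. Control cells received the vehicle. The F group received 1 nM filanesib, an inhibitor of the mitotic kinesin KSP. Its treatment label adds 10 nM dexamethasone, a glucocorticoid, but its title carries the letter F without the D of the other titles. The PD group received 500 nM pomalidomide, which directs the ubiquitin ligase receptor cereblon to new substrates, with 10 nM dexamethasone. The FPD group received all 3 drugs at these doses. The study asked how filanesib and the pomalidomide pair act alone and together. The labels do not state whether a group's arrays are separate cultures, and p-values therefore cover only the scatter of these arrays, which may be technical. MM.1S is 1 line, so the values describe that line alone.

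Values are deposited log2 signals, and 1 unit is a doubling of the signal. Median signals per array ranged from 4.23 to 4.27, and arrays of the same group correlated at 0.988 to 0.992 over genes. A probe's brightness depends on its sequence, so differences are read between groups for 1 gene and not between genes. The marker levels that follow are only a rough description of the cells. Plasma cell markers were bright in the Control arrays, with means of 10.19 for SDC1, 10.80 for XBP1 and 11.22 for MZB1. The 5 myeloid markers had Control means of 2.93 to 4.64, below the median gene at 5.39, as did CD2 of T cells at 4.07. EPCAM of epithelia at 4.61 was also below it, while CD8A at 5.91 and KRT18 of epithelia at 7.51 lay above. KRT18 has a second, dimmer row with a Control mean of 3.55, below the median gene. These 9 genes of other cell types all missed the limma threshold in PD against Control, with changes of -0.30 to 0.35. Over all genes 8.63% were lower and 6.84% higher there. Of 6 plasma cell markers 2 were lower, IRF4 at -1.23 and SLAMF7 at -0.48 (limma adjusted p = 2.2e-07 and 0.000877). Both measured glucocorticoid-induced genes were high in PD and FPD and near Control in F. The mean of DDIT4 was 5.99 in Control, 5.97 in F, 10.45 in PD and 10.61 in FPD. For FKBP5 the means were 5.57, 5.74, 7.06 and 7.25 in the same order.

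Replication is prepared in G1 phase, when the origin recognition complex, CDC6 and CDT1 load the MCM2 to MCM7 ring onto DNA in an inactive form, a step called licensing. At the start of S phase the kinase CDC7 with its subunit DBF4 phosphorylates the ring. CDC45 and the 4 GINS proteins then join it to form the active helicase, the polymerases follow with the sliding clamp PCNA, and ribonucleotide reductase and thymidylate synthase supply deoxynucleotides. Many of these genes are targets of the E2F transcription factors, which RB holds back until cyclin-dependent kinases release them late in G1. Myeloma cells resemble plasma cells, which normally do not divide, but continue to cycle.

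The promoters of 27 of the 31 genes were found among the RefSeq sequences of build GRCh38.p14, each a window from 250 bases before to 50 bases after a transcription start. Not matched were MCM4, MCM5, GINS4 and DNA2. The matched windows were searched for the E2F motif, written as TTTCCCGC, TTTCGCGC, TTTGCCGC or TTTGGCGC, on both strands and with overlapping matches counted. It was present in a window of 18 of the 27 genes (66.7%), against 5.38% of the tested genes with a window (578 of 10749). Of all windows of this length, 3.31% held it, and of the 40 windows of the replication genes 47.5%. The CCAAT box, searched as CCAAT, was in 57.5% of the replication genes' windows and 34.6% of all windows. For the CHR element of mitotic genes, TTTGAA, the shares were 7.5% and 15.2%, and for the E-box CACGTG 12.5% and 7.26%, each on both strands. A match is a description of the letters and not a measured site. Near matches were not counted, such as tttggcgg in windows of CDC6, CDC45 and MCM10, which differs from TTTGGCGC in its last base. Genes counted as without the motif lack only the letters searched. Windows of 5 genes are shown 5′ to 3′ on the gene's strand, with E2F motif letters in capitals. CDC6, MCM3 and GINS2 stand for genes with a match that were clearly lower after pomalidomide with dexamethasone. DUT, not shown, had matches in a window and was the least lowered of all 31 genes, at -0.20 in PD against Control. CDC45, not shown, had none and changed by -0.78. MCM10 had none of these letters and was also clearly lower, and RRM2 had none and was among the least lowered. They lie at chr17:40287629-40287928 (CDC6, plus strand), chr6:52284693-52284992 (MCM3, minus strand), chr16:85688905-85689204 (GINS2, minus strand), chr10:13161308-13161607 (MCM10, plus strand) and chr2:10122489-10122788 (RRM2, plus strand).
CDC6: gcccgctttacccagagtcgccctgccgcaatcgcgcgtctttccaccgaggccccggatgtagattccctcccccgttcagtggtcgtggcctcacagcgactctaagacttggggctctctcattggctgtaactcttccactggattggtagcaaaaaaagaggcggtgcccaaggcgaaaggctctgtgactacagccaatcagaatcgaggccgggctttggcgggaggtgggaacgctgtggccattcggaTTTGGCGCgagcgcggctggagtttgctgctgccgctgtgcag
MCM3: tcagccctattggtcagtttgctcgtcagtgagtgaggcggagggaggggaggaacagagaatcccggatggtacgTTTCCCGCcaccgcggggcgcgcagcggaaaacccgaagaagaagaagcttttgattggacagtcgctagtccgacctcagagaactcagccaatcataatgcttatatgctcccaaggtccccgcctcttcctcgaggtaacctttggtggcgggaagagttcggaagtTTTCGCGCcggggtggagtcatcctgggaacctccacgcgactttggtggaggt
GINS2: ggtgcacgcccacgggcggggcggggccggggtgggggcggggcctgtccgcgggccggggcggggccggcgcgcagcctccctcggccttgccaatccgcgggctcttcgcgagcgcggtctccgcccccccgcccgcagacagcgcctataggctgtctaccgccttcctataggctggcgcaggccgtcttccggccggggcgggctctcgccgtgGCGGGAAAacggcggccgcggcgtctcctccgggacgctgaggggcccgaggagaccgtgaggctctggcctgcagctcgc
MCM10: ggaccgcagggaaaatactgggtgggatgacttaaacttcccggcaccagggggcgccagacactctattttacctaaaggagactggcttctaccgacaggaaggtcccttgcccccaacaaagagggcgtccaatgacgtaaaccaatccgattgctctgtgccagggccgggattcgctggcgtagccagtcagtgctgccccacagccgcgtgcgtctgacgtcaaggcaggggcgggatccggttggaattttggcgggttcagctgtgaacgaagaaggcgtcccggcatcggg
RRM2: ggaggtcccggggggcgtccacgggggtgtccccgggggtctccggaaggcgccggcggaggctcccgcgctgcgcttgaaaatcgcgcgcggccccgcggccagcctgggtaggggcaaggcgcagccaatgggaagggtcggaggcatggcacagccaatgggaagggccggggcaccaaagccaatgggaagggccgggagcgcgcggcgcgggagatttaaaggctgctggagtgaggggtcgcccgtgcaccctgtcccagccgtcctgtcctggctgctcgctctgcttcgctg

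The first comparison asked what pomalidomide with dexamethasone did to these genes in the absence of filanesib. Replication genes fell broadly. Of the 31, 27 were lower in PD than in Control and none was higher (87.1%), where 8.63% of all genes tested were lower in the same limma fit (Benjamini-Hochberg adjusted p under 0.05). The median log2 change was -0.60, against -0.0027 over all genes tested. All 3 PD arrays lay below all 3 Control arrays for 29 of the 31 genes, against 15.8% of all genes. For 16 genes (51.6%) the fall was at least 1.5-fold, against 2.75% of all genes. For TIPIN, CDC6 and MCM6 it was at least 2-fold, as for 51 of all 14884 genes tested. In bulk RNA, fewer cells in S phase and less of a transcript per cell cannot be told apart.

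**Figure D1:**
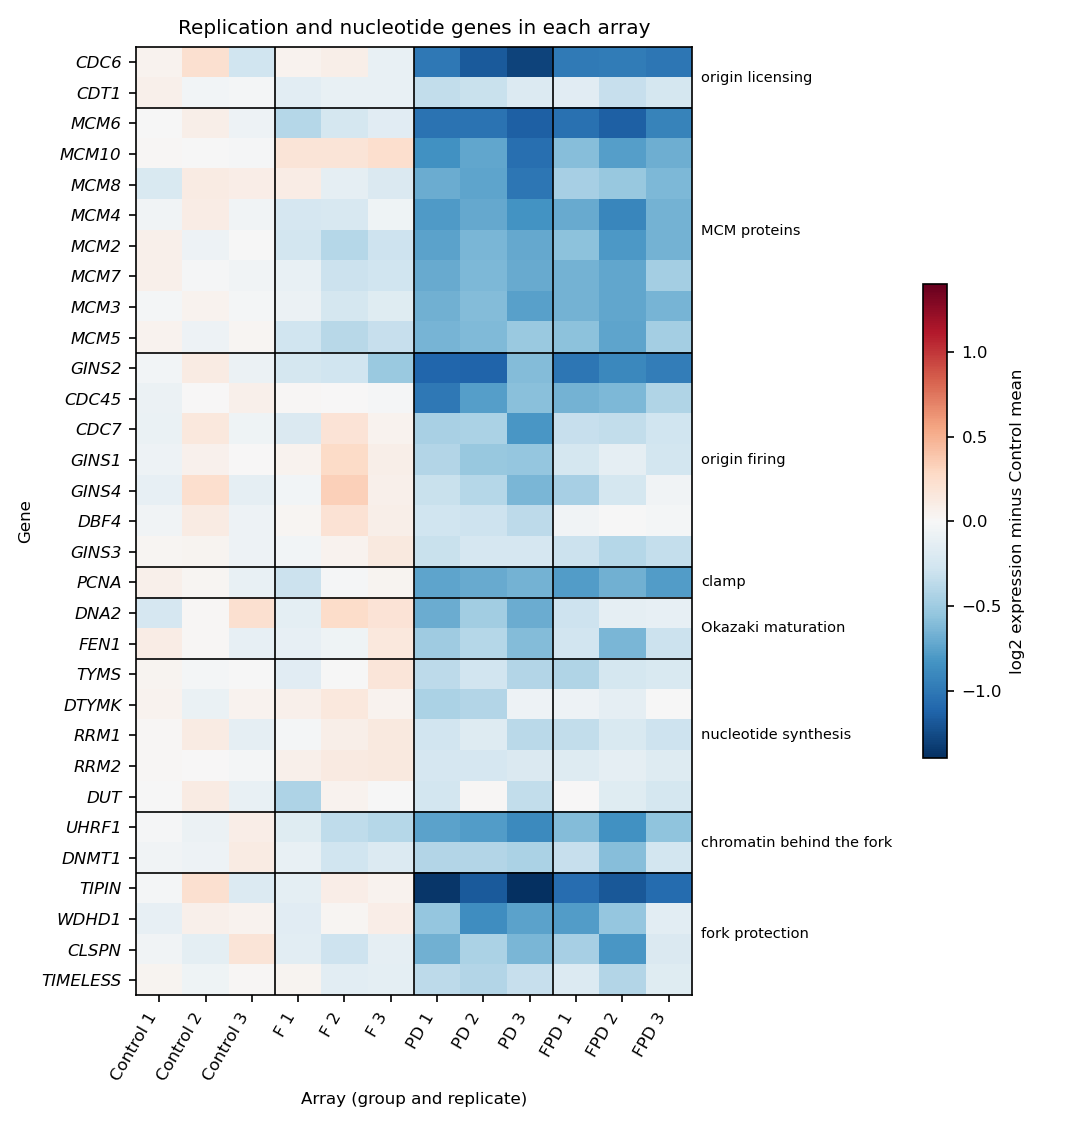
Each row is 1 of the 31 replication genes, grouped by role, and each column 1 of the 12 arrays; colour gives the array's log2 signal minus the mean of the gene's 3 Control arrays. The PD and FPD columns are below Control for nearly all genes, with the deepest colour for TIPIN, CDC6 and MCM6, while the F columns are near Control.

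Both measured licensing genes fell. CDC6, the ATPase that loads the MCM ring with the origin recognition complex, had log2 signals of 8.69, 8.87 and 8.37 in the Control arrays and 7.64, 7.47 and 7.35 in the PD arrays. The groups did not overlap, and the change was -1.16 (limma adjusted p = 6.83e-06). CDT1, the partner that brings MCM proteins to the origin, was 8.77, 8.66 and 8.67 in Control and 8.36, 8.39 and 8.51 in PD, also without overlap. Its fall of 0.28 on the log2 scale was smaller (limma adjusted p = 0.0352). The CDT1 call was lost when any Control array or PD replicate 1 or 2 was left out, with an adjusted p of up to 0.119.

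All 8 MCM genes fell, with changes from -0.60 to -1.07 and a median of -0.75. MCM6, a subunit of the ring, fell most. Its signals were 9.46, 9.55 and 9.39 in Control against 8.43, 8.43 and 8.32 in PD, a change of -1.07 (limma adjusted p = 1.57e-06). MCM10, which is not part of the ring and helps to activate it, was 8.68, 8.66 and 8.65 in Control and 7.82, 7.94 and 7.61 in PD. That is a change of -0.88, far outside the spread of the Control arrays (limma adjusted p = 1.24e-05). The ring subunit with the smallest change was MCM5, at 9.77, 9.65 and 9.75 in Control and 9.07, 9.11 and 9.20 in PD. It too was clear of Control, with a change of -0.60 (limma adjusted p = 0.000279). Among the other ring subunits the changes were -0.78 for MCM4, -0.71 for MCM2, -0.68 for MCM3 and -0.68 for MCM7, a narrow range. MCM8, a related helicase known for its part in recombination, changed by -0.81.

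The 7 origin firing genes also fell, over a wider range, with a median of -0.49. GINS2, a subunit of the GINS complex, was 7.60, 7.76 and 7.56 in Control and 6.53, 6.51 and 7.03 in PD. PD replicate 3 lay nearer to Control than the others but did not reach it, and the change was -0.95 (limma adjusted p = 8.43e-05). CDC45, the other helicase cofactor, was 8.10, 8.18 and 8.25 in Control and 7.18, 7.41 and 7.59 in PD, a change of -0.78 (limma adjusted p = 0.000101). The remaining GINS subunits fell less, by 0.49 on the log2 scale for GINS1, by 0.45 for GINS4 and by 0.26 for GINS3. The kinase CDC7 fell by 0.57, and its activating subunit DBF4 by 0.31. Leaving out single arrays ended 3 of these calls. GINS3 lost its call without any 1 of the 6 arrays compared (adjusted p up to 0.137). DBF4 and GINS4 lost theirs without Control replicate 2, PD replicate 2 or PD replicate 3, with an adjusted p of up to 0.111 and 0.16. Other alternatives also ended these 3 calls (limma adjusted p up to 0.14 for GINS3, 0.106 for GINS4 and 0.0696 for DBF4). For GINS4 they included the mean of both its rows.

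At the fork, PCNA, the ring that holds the polymerases on DNA, was 10.09, 10.04 and 9.91 in Control and 9.28, 9.31 and 9.35 in PD. The change of -0.70 was several times the spread of either group (limma adjusted p = 0.000144). The nucleases that trim Okazaki fragments fell by 0.62 on the log2 scale for DNA2 and by 0.51 for FEN1.

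The fork protection genes held the most lowered of all 31. TIPIN, which with TIMELESS forms the complex that steadies stalled forks, was 7.57, 7.83 and 7.41 in Control and 6.24, 6.43 and 6.21 in PD. All PD arrays lay far below all Control arrays, and the change was -1.31 (limma adjusted p = 1.24e-06). Its partner TIMELESS changed by -0.37. CLSPN, the adaptor through which ATR activates CHK1, changed by -0.58, and WDHD1, which ties the helicase to polymerase alpha, by -0.72. CLSPN has a second row in the table, at signals of 2.47 to 2.93, and the mean of both rows ended its call (limma adjusted p = 0.0819).

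The maintenance of DNA methylation behind the fork was represented by UHRF1, which binds half-methylated DNA, and DNMT1, the methyltransferase it recruits. UHRF1 was 8.92, 8.86 and 9.04 in Control and 8.19, 8.16 and 8.05 in PD, a change of -0.81 without overlap (limma adjusted p = 4.66e-05). DNMT1 changed by -0.42 (limma adjusted p = 0.00921).

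The 5 measured genes of deoxynucleotide synthesis had the smallest differences of any role, with a median of -0.28. Of these 5, TYMS alone passed the test. The small size describes these 5 genes and not nucleotide synthesis at large. In the list of 28 further replication and nucleotide genes, given below, changes ran from -0.93 for CTPS1 to 0.27 for SAMHD1. TYMS makes thymidylate and was 10.54, 10.48 and 10.50 in Control and 10.14, 10.23 and 10.09 in PD, a change of -0.35 (limma adjusted p = 0.023). It lost the call without any Control array or without PD replicate 1 or 3 (adjusted p up to 0.0784). For RRM2, the regulatory subunit of ribonucleotide reductase, the arrays were tight and separate, at 10.90, 10.89 and 10.85 in Control and 10.65, 10.65 and 10.68 in PD. The change was small, at -0.22 with a 95% interval of -0.39 to -0.06 (limma adjusted p = 0.0706). RRM1, the catalytic subunit, was 9.61, 9.71 and 9.48 against 9.33, 9.42 and 9.22, a change of -0.28 with an interval of -0.48 to -0.07 (limma adjusted p = 0.0623). For DTYMK, the kinase that follows TYMS, the difference was -0.31 (limma adjusted p = 0.0547). DUT, which removes dUTP, was 5.96, 6.09 and 5.87 in Control and 5.72, 5.99 and 5.63 in PD. Its groups overlapped, and the change of -0.20 had an interval of -0.47 to 0.08 that included 0 (limma adjusted p = 0.386).

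**Figure D2:**
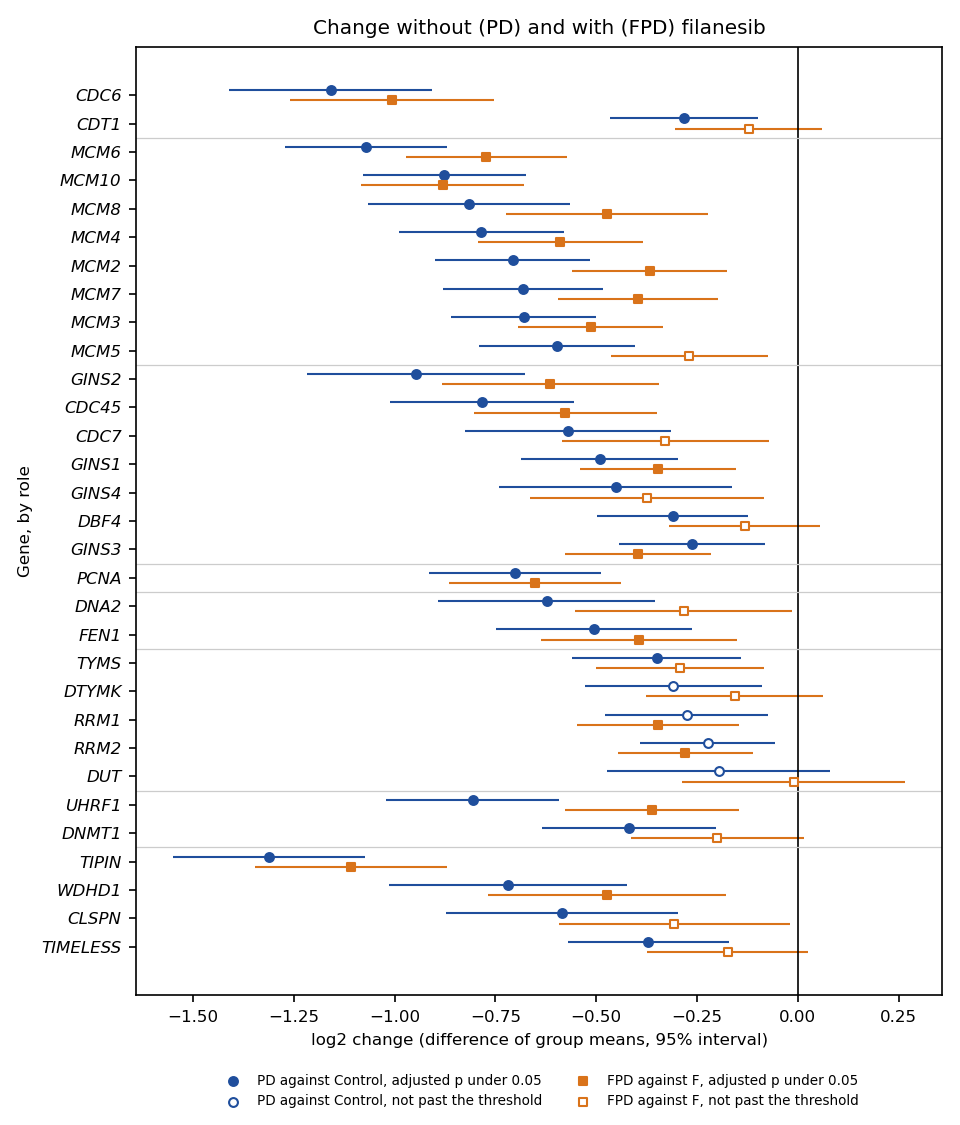
Log2 change of each of the 31 genes (points) with its 95% interval (lines), grouped by role, for PD against Control (circles) and FPD against F (squares); filled points passed the limma threshold. All points lie below 0, from -1.31 for TIPIN without filanesib to -0.01 for DUT with it, and most squares lie nearer to 0 than the circle of the same gene.

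The second comparison, FPD against F, was made between cells that all had filanesib, and it shares no array with PD against Control. What it compares depends on whether the F cells had dexamethasone. By their treatment label they did, and FPD then adds pomalidomide alone, while by their title it adds pomalidomide with dexamethasone, as PD does to Control. DDIT4 and FKBP5, the glucocorticoid-induced genes, were higher in FPD than in F by 4.65 and 1.505 on the log2 scale (limma adjusted p = 4.59e-15 and 7.47e-07). Again 19 of the 31 genes were lower and none was higher, against 6.64% of all genes lower (limma adjusted p under 0.05). The median change was -0.37, and over all genes -0.0075. The 3 FPD arrays lay below the 3 F arrays for 26 genes, against 15.2% of all genes. Lower in both comparisons were 17 genes, against 4.82% of all genes: CDC45, CDC6, FEN1, GINS1, GINS2, GINS3, MCM2, MCM3, MCM4, MCM6, MCM7, MCM8, MCM10, PCNA, TIPIN, UHRF1 and WDHD1. Passing the test in PD against Control alone were 10 genes, CDC7, CDT1, CLSPN, DBF4, DNA2, DNMT1, GINS4, MCM5, TIMELESS and TYMS, whose FPD minus F differences ran from -0.37 for GINS4 to -0.12 for CDT1. RRM1 and RRM2 passed it in FPD against F alone. Whether the size differed between both comparisons is tested further on for each gene.

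The order of the genes at the top was similar. TIPIN was 7.47, 7.70 and 7.65 in the F arrays and 6.54, 6.42 and 6.53 in the FPD arrays, a change of -1.11 (limma adjusted p = 6.81e-06). CDC6 was 8.70, 8.73 and 8.54 in F and 7.65, 7.67 and 7.63 in FPD, a change of -1.01 (limma adjusted p = 2.82e-05). In both genes the FPD arrays were tight and well below F. MCM10 was 8.84, 8.84 and 8.90 in F and 8.07, 7.89 and 7.98 in FPD, and its change of -0.88 had the same size as in PD against Control (limma adjusted p = 1.23e-05). MCM6 was 9.07, 9.22 and 9.31 in F and 8.43, 8.33 and 8.53 in FPD, a change of -0.77 (limma adjusted p = 3.8e-05). PCNA was 9.71, 10.00 and 10.05 in F and 9.23, 9.34 and 9.22 in FPD, a change of -0.65 (limma adjusted p = 0.000324).

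Among helicase cofactors, GINS2 was 7.39, 7.36 and 7.12 in F and 6.63, 6.74 and 6.67 in FPD, a change of -0.61 (limma adjusted p = 0.00352). CDC45 was 8.19, 8.18 and 8.16 in F and 7.51, 7.54 and 7.75 in FPD, a change of -0.58 (limma adjusted p = 0.00152). Both groups were separate in both genes. MCM5 was 9.44, 9.34 and 9.40 in F and 9.15, 8.98 and 9.24 in FPD. Those arrays did not overlap, but the change of -0.27 did not pass the test (limma adjusted p = 0.0634), which leaves 7 of the 8 MCM genes lower here. CDT1, at 8.56, 8.59 and 8.60 in F and 8.55, 8.38 and 8.46 in FPD, had a difference of -0.12 (limma adjusted p = 0.45). UHRF1, at 8.77, 8.58 and 8.54 against 8.34, 8.10 and 8.37, changed by -0.36 (limma adjusted p = 0.0241). For DNMT1 the difference was -0.20 (limma adjusted p = 0.245).

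Both subunits of ribonucleotide reductase were called here. RRM2 was 10.96, 11.01 and 11.02 in F and 10.70, 10.76 and 10.70 in FPD, a change of -0.28 (limma adjusted p = 0.0252). RRM1 was 9.57, 9.68 and 9.74 against 9.26, 9.39 and 9.31, a change of -0.35 (limma adjusted p = 0.0208). These sizes are close to -0.22 and -0.28 in PD against Control, where neither passed. TYMS was 10.34, 10.50 and 10.67 in F and 10.09, 10.26 and 10.29 in FPD, without overlap and with a difference of -0.29 (limma adjusted p = 0.0608). DUT, at 5.55, 6.02 and 5.97 against 5.97, 5.80 and 5.73, overlapped, with a difference of -0.01. The RRM1 and RRM2 calls were lost without F replicate 2 or 3 or FPD replicate 1 or 3, with an adjusted p of up to 0.0858 for RRM1 and 0.0817 for RRM2. Single arrays also ended the calls of WDHD1 (F replicates 2 and 3, FPD replicates 1 and 2; up to 0.165), FEN1 (F replicates 2 and 3, FPD replicate 2; up to 0.156), UHRF1 (F replicates 1 and 2, FPD replicate 2; up to 0.125), GINS1 (F replicate 2, FPD replicates 1 and 3; up to 0.098), MCM2 (FPD replicate 2; 0.063) and MCM8 (F replicate 1, FPD replicate 3; up to 0.0582).

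**Figure D3:**
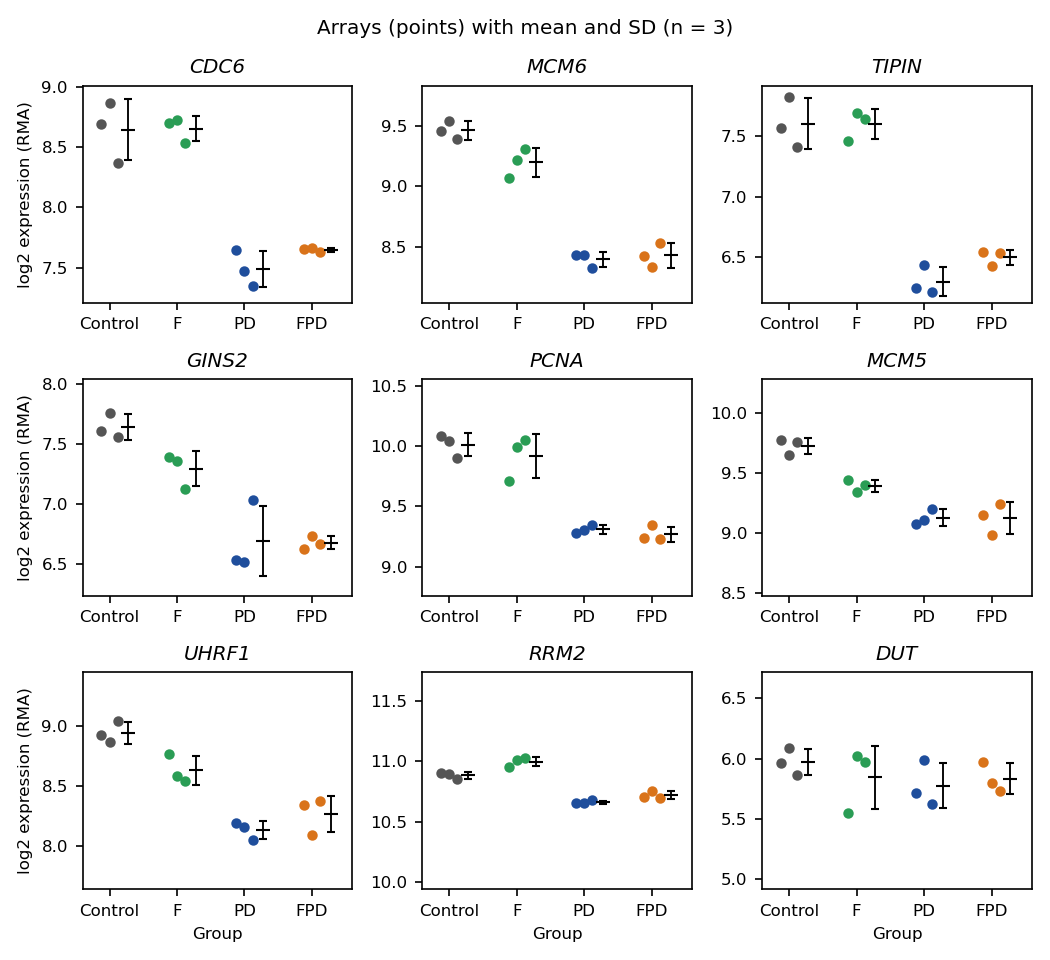
Log2 signal of 9 replication genes on each of the 12 arrays (points), with the mean and SD of each group of 3 (bars); every panel spans the same range of log2 units. CDC6, TIPIN and PCNA lie at similar levels in Control and F and lower in PD and FPD, the F arrays of MCM5, UHRF1 and GINS2 lie below the Control arrays, and the 4 groups of DUT overlap.

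The filanesib group against vehicle, F against Control, changed no replication gene past the threshold, and 0.00672% of all genes, 1 gene, passed it (limma adjusted p under 0.05). At an unadjusted p under 0.05 there were 6 of the 31 (19.4%), against 6.01% of all genes. By the treatment label this comparison would include dexamethasone. With 19 of the 31 genes below 0 (61.3%, against 51.7% of all genes), the median change was -0.01, against -0.0051 over all genes. It was 0.01 with 15 below 0 without F replicate 1, -0.06 without Control replicate 1, -0.08 without Control replicate 3, -0.05 without F replicate 2 and -0.07 without F replicate 3, and -0.03 when the arrays were quantile normalized again. The lowest were GINS2 at -0.35, MCM5 at -0.33 and MCM2 at -0.31 (limma adjusted p = 0.702, 0.572 and 0.606). The highest were MCM10 at 0.20, GINS1 at 0.14 and GINS4 at 0.12 (limma adjusted p = 0.836, 0.902 and 0.932). All 3 F arrays lay below all 3 Control arrays for 10 genes, which is 32.3% of the 31 against 5.15% of all genes. Those genes were MCM2 to MCM7, CDT1, GINS2, UHRF1 and DNMT1, named here after their values were seen. The 8 MCM genes had a median of -0.20, and 7 of them were below 0, MCM10 being the exception. In MCM5 the arrays were 9.77, 9.65 and 9.75 in Control and 9.44, 9.34 and 9.40 in F. They did not overlap, but the gene missed the adjusted threshold, so no change is claimed for it. MCM10 and RRM2 went the other way, with all F arrays above all Control arrays.

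Adding filanesib to the pomalidomide pair, FPD against PD, also called none of the 31 genes, against 0.0336% of all genes (5 genes; limma adjusted p under 0.05). At an unadjusted p under 0.05 there were 5 of the 31 (16.1%), against 8.62% of all genes. Here 26 of the 31 changes (83.9%) were above 0, against 51.8% of all genes. The median was 0.09, against 0.0057 over all genes. The median of the 31 became 0.05 with 20 above 0 when the arrays were quantile normalized again. It was 0.06 when the rows of a gene were averaged. Leaving out 1 array gave a median of 0.05 without PD replicate 1, 0.15 without PD replicate 2 and 0.15 without FPD replicate 2, and left 20 above 0 without FPD replicate 3. DNA2 was highest at 0.45 (limma adjusted p = 0.27), from signals of 6.78, 6.98 and 6.78 in PD and 7.18, 7.35 and 7.36 in FPD. DBF4 followed at 0.28, from 7.97, 7.96 and 7.88 to 8.20, 8.24 and 8.21, and GINS1 at 0.28 (limma adjusted p = 0.352 and 0.375). The lowest were GINS3 at -0.08, PCNA at -0.04 and GINS2 at -0.01. All FPD arrays lay above all PD arrays for 6 genes, 19.4% of the 31 against 8.1% of all genes, and below for none.

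With all 3 drugs against vehicle, FPD against Control, 19 of the 31 were lower and none higher, where 5.89% of all genes were lower and 7.26% higher (limma adjusted p under 0.05). These values share the Control arrays with PD against Control. The median change was -0.49. The lowest were again TIPIN at -1.11, MCM6 at -1.04 and CDC6 at -0.997. The highest were DUT at -0.14, DTYMK at -0.06 and DBF4 at -0.03. DBF4 in FPD, at 8.20, 8.24 and 8.21, lay within its Control arrays of 8.20, 8.37 and 8.17.

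Whether the FPD minus F change differed from the PD minus Control change was tested for each gene as the first minus the second. Only if the F cells had no dexamethasone do both changes come from the same drugs, so this is a test of the difference between these 2 comparisons and, by the treatment label, not of filanesib alone. No replication gene passed (limma adjusted p under 0.05), nor did any other gene, so the share of all genes was 0.0%. At an unadjusted p under 0.05 there were 5 of the 31 genes and 833 of all genes. The difference was above 0, meaning a smaller fall in FPD against F, in 27 of the 31 (87.1%), against 52.6% of all genes. Its median was 0.19, against 0.01 over all genes. The largest were 0.44 for UHRF1, 0.34 for MCM8 and 0.34 for MCM2 (limma adjusted p = 0.888 for UHRF1). The lowest were -0.13 for GINS3, -0.07 for RRM1 and -0.06 for RRM2. For MCM10 both changes were -0.88.

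Of 47 further replication and nucleotide genes 28 were measured. In PD against Control 17 of them were lower (60.7%, against 8.63% of all genes). None was higher and 11 did not pass the test, with a median of -0.44. The lowest were CTPS1, which makes CTP, at -0.93 (limma adjusted p = 2.49e-05) and NASP, a histone chaperone, at -0.91 (limma adjusted p = 6.83e-06). The highest were SAMHD1, which breaks down deoxynucleotides, at 0.27 (limma adjusted p = 0.0572) and RRM2B, the p53-inducible subunit of ribonucleotide reductase, at 0.20 (limma adjusted p = 0.329). In FPD against F, 11 of the 28 were lower (39.3%, against 6.64% of all genes), with a median of -0.29.

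Most genes that control entry into S phase fell as well. Of 16 measured, 12 were lower in PD than in Control, where 8.63% of all genes were lower. The median change of the 16 was -0.56, against -0.0027 over all genes. E2F1, the transcription factor that gives the promoter motif its name, changed by -1.20 (limma adjusted p = 4.8e-06), and CDC25A, the phosphatase that activates cyclin-dependent kinases, by -1.12 (limma adjusted p = 5.64e-06). RB1 at 0.06 and E2F3 at 0.01 were the highest. In FPD against F, 10 were lower (62.5%, against 6.64% of all genes), and E2F3 was higher at 0.34 (limma adjusted p = 0.0175).

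Genes of mitosis, the later phase of the cycle, showed another pattern. Of 30 measured, 1 was lower in PD than in Control, MAD2L1 of the spindle checkpoint at -0.35. Higher were 2, CCNB2 by 0.52 and CDC20 by 0.29, and the median was 0.01. These are 3.33% lower and 6.67% higher, against 8.63% and 6.84% of all genes. The proliferation antigen MKI67 had a difference of -0.28 (limma adjusted p = 0.3). In F against Control none of the 30 passed the test, but 29 of the changes were above 0, against 48.3% of all genes, with a median of 0.27. In FPD against PD none passed either, and all 30 were above 0, against 51.8% of all genes, with a median of 0.34. In FPD against Control 14 were higher (46.7%, against 7.26% of all genes), with a median of 0.31, beside the 19 lowered replication genes.

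**Figure D4:**
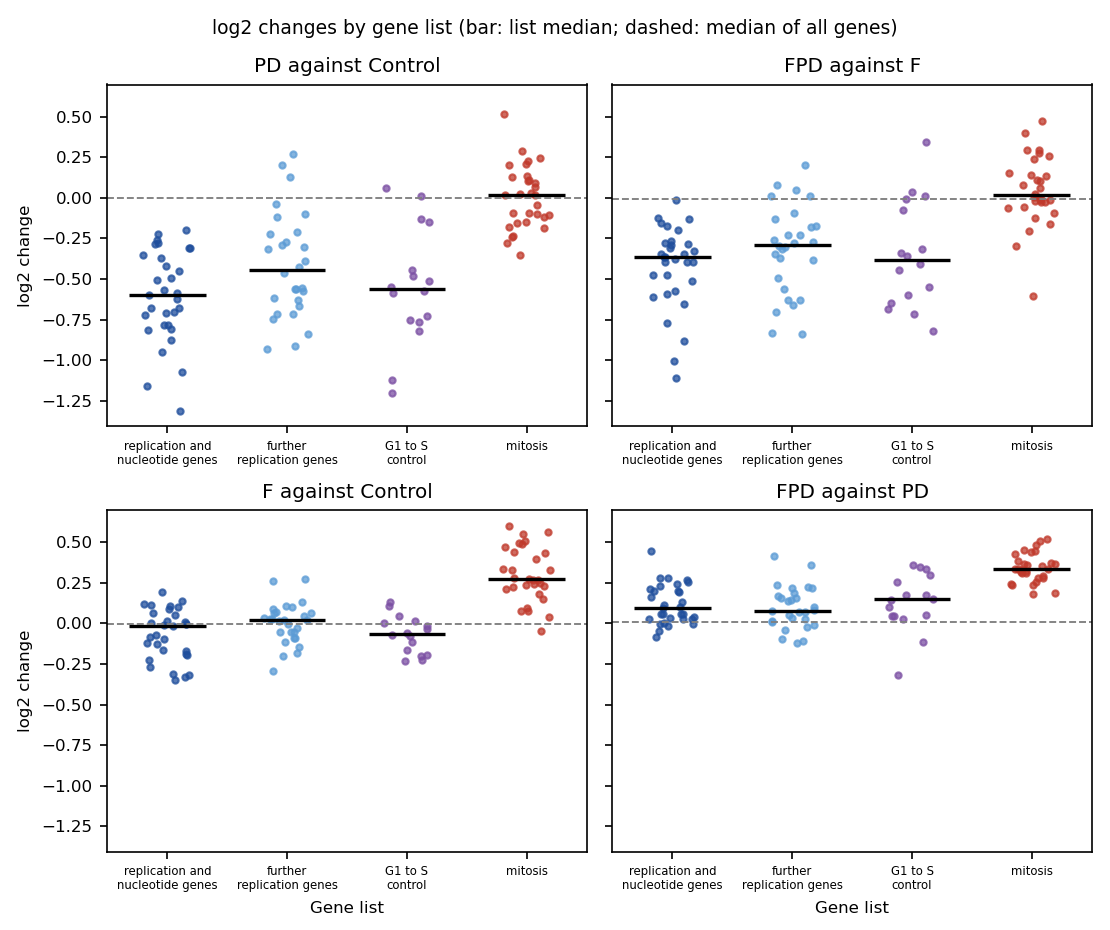
Log2 change of each measured gene (points) and the median (bar) of the 31 replication genes, 28 further replication and nucleotide genes, 16 G1 to S control genes and 30 mitosis genes, in 4 comparisons; the dashed line is the median of all genes. In PD against Control the first 3 lists lie mostly below 0, with medians of -0.60, -0.44 and -0.56, and mitosis genes centre on 0.01, while in both filanesib comparisons the mitosis medians are 0.27 and 0.34.

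Among the replication genes with a promoter window, 17 of the 18 with the E2F letters were lower in PD than in Control, with a median of -0.68. The exception was DUT, at -0.20. Of the 9 without the letters 6 were lower, with a median of -0.37. The others, RRM1, RRM2 and DTYMK, all belong to nucleotide synthesis, so motif and role cannot be told apart here. In FPD against F, 12 of 18 and 6 of 9 were lower, with medians of -0.38 and -0.35. Among all other tested genes, 17.0% of the 560 with the letters were lower in PD, and 9.26% of the 10162 without them. In FPD against F these shares were closer, at 10.2% and 7.25%. CDC6 and MCM3, printed above with their motifs, were lower in both comparisons. So was MCM10, whose window has none of the letters searched but holds the near match tttggcgg.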

How the data were processed

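RNA of MM.1S cells was hybridised to 12 expression arrays, 3 in each of 4 groups taken from the labels. Per the submitters' processing notes, the authors used Affymetrix Expression Console and RMA, and the deposited values are log2 signals; their versions are not given in the sources used here. Of 53617 rows, 16098 carried exactly 1 gene symbol, and 37519 carried none or several and were left out; the row with the highest mean stood for each of 779 genes with several rows, which left 14884 genes. A group-means model over all 12 arrays was fitted in R 4.3.3 with limma 3.58.1, using lmFit and then eBayes (two-sided, Benjamini-Hochberg over all genes, called at adjusted p under 0.05), after the script was tested on simulated data. The number of arrays limits the precision, and RMA quantile normalization assumes that most genes do not move. Lists are described by counts and medians beside those of all genes. The members and lists were chosen with earlier results of these data known. All members were open to naming in both pomalidomide comparisons; elsewhere the 3 lowest and 3 highest changes were named, and of other lists the 2 lowest and 2 highest. Alternatives covered normalization, rows per gene, filters, variance trend, the arrays fitted, a replicate block and leaving out each array.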

Additional observations from a re-analysis of the deposited data

How the results depend on the processing

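The counts of lowered replication genes kept within 1.5 times their reported values under the alternatives run. In PD against Control, 27 became 22 to 25 when 1 array was left out and 23 to 30 otherwise. In FPD against F, 19 became 13 to 19 and 15 to 23, and in FPD against Control 14 to 19 and 16 to 23. The background moved too. Over all genes 1284, 988 and 876 of 14884 were lower in these 3 comparisons. With 1 array left out the numbers were 918 to 1165, 657 to 985 and 617 to 773. Among genes above the median mean, tested alone, they were 1436, 1129 and 983 of 7442. With every row tested they were 1800, 1296 and 1085 of 53617. Calls of replication genes remained 0 in F against Control, in FPD against PD and in the difference between FPD minus F and PD minus Control. Calls were kept in every alternative for 21 of 27 genes in PD against Control and 11 of 19 in FPD against F. Among the genes named with a value in each comparison, leaving out 1 array turned the sign of DUT in FPD against F (-0.16 to 0.078), GINS2 in FPD against PD (-0.10 to 0.15) and DBF4 in FPD against Control (-0.066 to 0.032), none of them called. Over all 31 genes in FPD against PD, those below 0 numbered 4 to 11 with 1 array left out, against 5. Same-numbered arrays deviated together (r over 0.1) in 5 of 18 pairs, and 5 of 12 arrays correlated best with their own number. With 3 arrays per group these values cannot decide whether array numbers pair the samples. With the replicate block the lowered genes numbered 26, 19 and 19 in these 3 comparisons. Signal over background limits DUT and the second rows of GINS4 and CLSPN.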
